A study of Mus musculus with 4 samples.

Results

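Genes of retinoid metabolism and the aldehyde dehydrogenases were compared between Ovol2-deleted and control terminal end buds, the growing tips of the pubertal mammary ducts. The members were the genes whose symbols belong to the retinol and retinoic acid carriers, the retinol and retinal oxidoreductases, the aldehyde dehydrogenases with a numbered family and letter, the Cyp26 enzymes, the retinoic acid and retinoid X receptors, the storage and cleavage genes Lrat and Bco1, and the retinoid responders Rarres1 and Rarres2. The rule used symbols and no measured value, although it was written with earlier results of these data known. There were 56 such genes among 19938 genes with a probe set annotated to that gene alone, and the probe set with the highest mean signal stood for each gene.

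The 4 arrays came from end buds dissected by hand from female C57/BL6 mice. The 2 control arrays are labelled Ovol2flox/+, and the protocol text allows K14-Cre in some of those mice. Each control array held RNA of 2 mice. The 2 knockout arrays were Ovol2flox/-;K14-Cre, with RNA of 3 mice on each. Every mouse thus carried at least 1 floxed Ovol2 allele, the knockout mice lacked the other allele in all their cells, and Cre was under the keratin 14 promoter of basal epithelial cells and skin. Littermates shared cages. The samples are labelled 4.5 weeks old, while the series text gives 24 to 25 days. The labels call the arrays biological replicates.

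Vitamin A reaches cells as retinol, carried in blood by Rbp4 and taken up through Stra6. Cells oxidize it reversibly to retinaldehyde, with Rdh10 as a main enzyme and Dhrs3 acting in reverse, and then irreversibly to retinoic acid with the Aldh1a enzymes. Retinoic acid binds Crabp proteins in the cytoplasm, acts in the nucleus through pairs of a RAR and an RXR receptor, and is cleared by Cyp26 enzymes. The other aldehyde dehydrogenases oxidize aldehydes of amino acid, lipid and folate metabolism, and aldehyde dehydrogenase activity is widely used to mark progenitor cells in mammary tissue.

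Values are given as normalized log2(signal + 16), and errors are standard errors of the log2 difference from limma, with 2 arrays per group. Folds are on the same scale, which understates changes of dim genes. Of the 56 members, 30 passed the filter on dim genes, a mean log2 value of 7.97 over the 4 arrays. Of these 30, 4 rose in the knockout, 0 fell and 26 did not pass the threshold, an adjusted p of 0.05. Over all 11963 tested genes, 10.7% passed, 6.29% as higher and 4.46% as lower in the knockout. The 4 members that rose make up 13.3% of those tested. Without adjustment, 5 tested members had p under 0.05 in limma as higher and 6 as lower. That count was not made over all tested genes, so no excess can be read from it. The median log2 difference of the tested members was -0.032, beside -0.022 over all tested genes. Both knockout arrays lay above both control arrays for 7 of the 30, or 23.3% beside 26.4% of all tested genes, and below them for 10, or 33.3% beside 29.9%. Apart from the 4 that rose, all 26 tested members differed by less than 0.3 on the log2 scale in either direction.

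**Figure D1:**
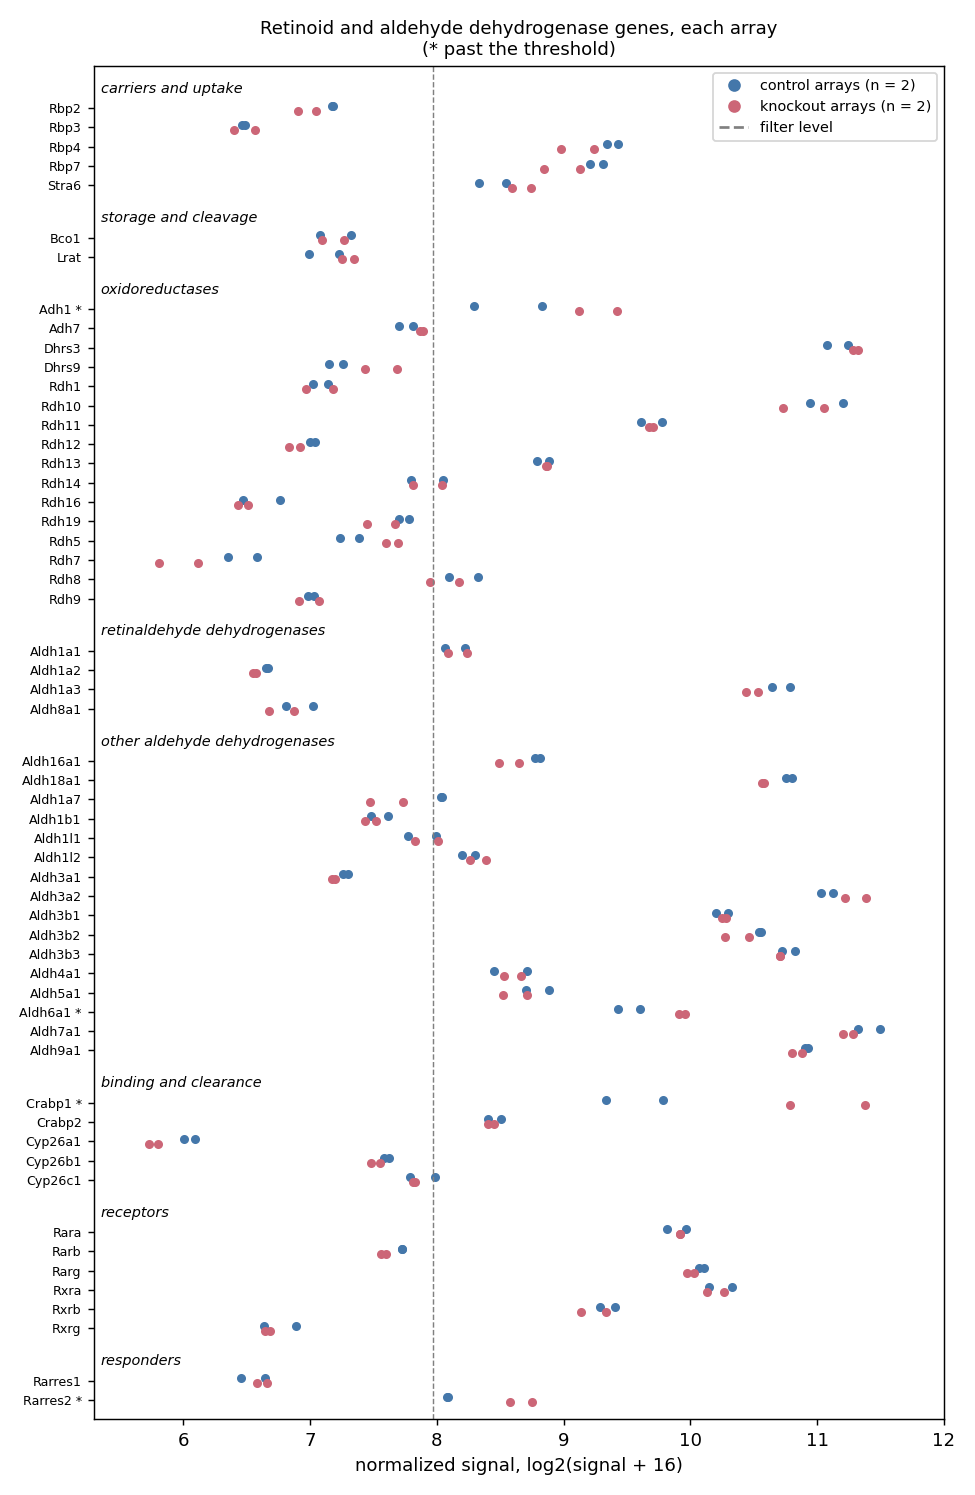
Normalized log2(signal + 16) of all 56 members on each array (x axis), grouped by role, with 2 control arrays in blue and 2 knockout arrays in red; the dashed line is the filter level of 7.97 and asterisks mark members past the threshold. Crabp1, Adh1, Aldh6a1 and Rarres2 have both red points right of both blue points, and 26 members have a mean left of the dashed line.

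The genes that rose were Crabp1, Adh1, Rarres2 and Aldh6a1. Promoter windows of members, from 250 bases before to 50 after a gene's start, were read from RefSeq sequence of the GRCm38.p6 build, in which 46 of the 56 members had at least 1 window and Rarres2 is named only. Capitals mark direct repeats of a receptor hexamer with 5 bases between them and the OVO core motif CCGTTA, which is recognized by OVO-type zinc finger proteins. The windows of Crabp1, Adh1 and Aldh6a1 are shown because these genes rose. Aldh6a1 had 2 windows, and the one that holds the OVO core was chosen for printing. The windows of Rarb and Cyp26a1, both textbook targets of retinoic acid receptors, are shown because they hold such a direct repeat. Their matches were thus the reason for showing them.
Crabp1 (chr9:54764498-54764797, plus strand): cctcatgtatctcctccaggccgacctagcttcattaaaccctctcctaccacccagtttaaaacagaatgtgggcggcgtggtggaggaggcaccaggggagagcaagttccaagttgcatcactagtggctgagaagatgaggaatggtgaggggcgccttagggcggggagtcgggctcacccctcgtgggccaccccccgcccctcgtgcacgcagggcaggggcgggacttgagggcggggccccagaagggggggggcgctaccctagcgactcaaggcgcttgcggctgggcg
Adh1 (chr3:138277335-138277634, plus strand): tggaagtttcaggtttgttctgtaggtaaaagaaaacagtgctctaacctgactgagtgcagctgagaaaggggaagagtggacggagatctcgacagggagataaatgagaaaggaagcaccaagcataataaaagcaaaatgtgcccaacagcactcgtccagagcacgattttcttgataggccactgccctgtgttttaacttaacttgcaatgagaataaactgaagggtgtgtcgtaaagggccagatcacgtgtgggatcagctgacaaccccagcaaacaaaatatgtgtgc
Aldh6a1 (chr12:84450975-84451274, minus strand): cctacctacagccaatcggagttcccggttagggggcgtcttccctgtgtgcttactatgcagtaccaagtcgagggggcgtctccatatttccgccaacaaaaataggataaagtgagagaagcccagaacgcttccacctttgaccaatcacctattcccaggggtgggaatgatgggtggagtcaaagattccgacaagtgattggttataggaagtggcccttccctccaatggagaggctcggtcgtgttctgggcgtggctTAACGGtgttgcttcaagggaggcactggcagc
Rarb (chr14:16575427-16575726, minus strand): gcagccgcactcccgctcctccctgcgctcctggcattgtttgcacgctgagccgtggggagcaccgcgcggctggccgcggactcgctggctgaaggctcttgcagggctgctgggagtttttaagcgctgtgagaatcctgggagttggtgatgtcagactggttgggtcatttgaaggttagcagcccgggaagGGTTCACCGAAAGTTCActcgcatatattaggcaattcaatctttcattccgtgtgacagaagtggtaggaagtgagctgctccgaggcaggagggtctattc
Cyp26a1 (chr19:37697558-37697857, plus strand): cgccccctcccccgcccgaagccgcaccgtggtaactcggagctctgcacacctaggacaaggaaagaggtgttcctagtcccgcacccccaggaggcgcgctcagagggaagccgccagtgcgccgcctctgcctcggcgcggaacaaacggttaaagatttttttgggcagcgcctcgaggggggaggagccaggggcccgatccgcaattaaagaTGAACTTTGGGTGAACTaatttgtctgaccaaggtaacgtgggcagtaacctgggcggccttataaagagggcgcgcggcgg

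The receptor hexamer was searched on both strands in its forms AGGTCA and AGTTCA and GGGTCA and GGTTCA, and each direct repeat contains a pair of these hexamers. A direct repeat with a spacer of 5 was found in the windows of Rarb, at base -53 from the start, and Cyp26a1, at base -32. It was in 2 of 63 member windows, and in 0.0974% of all 32841 windows of this length. No member window held a direct repeat with a spacer of 2 (0.268% of all windows), and the window of Bco1 held the only one with a spacer of 1 (0.222% of all). The OVO core was in 1 member window, that of Aldh6a1 at base 18 after the start on the opposite strand, and in 2.76% of all windows. The windows of Crabp1 and Adh1 held neither a hexamer nor the OVO core, and single hexamers were in 43.7% of all windows. These are matches of letters and not measured sites.

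Crabp1, which encodes a cytoplasmic retinoic acid-binding protein, changed most. It read 9.34 and 9.79 in control buds against 10.79 and 11.37 in knockout buds. All of the knockout signal lay above all of the control signal, and the nearest arrays of the groups were 1.0 apart, more than the spread of 0.45 within the controls and 0.59 within the knockouts. Crabp1 was 2.86-fold higher in the knockout (log2 difference 1.52 ± 0.18, 95% CI 1.12 to 1.92, limma, adjusted p = 0.00131), the 17th largest increase among the 752 genes that rose. With any 1 array left out, its differences ran from 1.22 to 1.81. Crabp1 did not pass without the mean-variance trend (adjusted p = 0.0516) or with a robust variance prior (adjusted p = 0.163).

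Its relative Crabp2, a carrier that delivers retinoic acid to its nuclear receptor, read 8.40 and 8.50 on the control arrays against 8.41 and 8.45 on the knockout arrays. The groups overlapped fully, with a log2 difference of -0.02 ± 0.12 (95% CI -0.30 to 0.25). The sign of this value turned in the values as deposited, without control replicate 2 and without knockout replicate 1. The interval of Crabp2 lay wholly below that of Crabp1. The difference between the 2 genes was not itself tested.

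Stromal markers were higher on average in the same arrays as Crabp1. Of 17 tested fibroblast markers 14 rose and 0 fell, while 2 had both knockout arrays below both controls. The mean log2 value over all 18 on the array was 9.30 and 9.42 in control buds against 10.23 and 10.52 in knockout buds. Endothelial markers had means of 8.43 and 8.70 on the control arrays against 8.88 and 9.13 on the knockout arrays, with 5 of 13 tested rising. Adipocyte markers had means of 8.81 and 8.83 in control buds against 8.99 and 9.08 in knockout buds, with 4 of 7 tested rising. Each of these means was lowest on control replicate 1 and highest on knockout replicate 2, and so were Crabp1, Adh1, Rarres2 and Aldh6a1 and also the means of the luminal markers (11.60, 11.71, 11.82 and 11.91 from control replicate 1 to knockout replicate 2) and of the basal markers (11.02, 11.16, 11.30 and 11.58). None of these markers can be placed at 0 on an array without detection calls. Their part in the results for the members was not tested. In bulk tissue, more cells of a type and more RNA per cell cannot be told apart. Which cells gave the signal of a marker cannot be read either.

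Adh1, a class I alcohol dehydrogenase that oxidizes ethanol and retinol, read 8.29 and 8.83 on the control arrays against 9.12 and 9.42 on the knockout arrays. The groups did not overlap, but the nearest arrays were 0.30 apart, less than the 0.54 between the controls. Adh1 rose 1.64-fold (log2 difference 0.71 ± 0.17, 95% CI 0.33 to 1.1, limma, adjusted p = 0.0281). The size rested on control replicate 1: the difference was 0.44 without that array, and the call was lost (adjusted p = 0.161), and 0.98 without control replicate 2. Adh1 also did not pass without the trend (adjusted p = 0.121) or with a robust prior (adjusted p = 0.0659).

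Rarres2 encodes chemerin, a secreted chemoattractant and adipokine first described as a gene that responds to retinoids in human skin. It read 8.08 and 8.09 in control buds against 8.58 and 8.75 in knockout buds. The controls lay close to the filter level and the gap to the nearest knockout array was 0.49, more than the 0.17 between the knockouts. Rarres2 rose 1.5-fold (log2 difference 0.58 ± 0.13, 95% CI 0.29 to 0.87, limma, adjusted p = 0.0218). It passed without the trend (adjusted p = 0.0456), and the call was lost on leaving out control replicate 1 (0.58, adjusted p = 0.113), control replicate 2 (0.58, adjusted p = 0.0612) or knockout replicate 2 (0.49, adjusted p = 0.0936). Rarres1, a carboxypeptidase inhibitor gene named for its retinoid response, was under the filter at 6.46 and 6.65 on the control arrays against 6.59 and 6.66 on the knockout arrays.

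Aldh6a1, the mitochondrial methylmalonate semialdehyde dehydrogenase of valine and thymine breakdown, read 9.43 and 9.60 in control buds against 9.91 and 9.96 in knockout buds. The gap of 0.31 between the groups was larger than the spread within either. Aldh6a1 rose 1.34-fold (log2 difference 0.42 ± 0.08, 95% CI 0.23 to 0.60, limma, adjusted p = 0.0132). The call was lost on leaving out control replicate 1 (0.33, adjusted p = 0.119), with median centring of the arrays (adjusted p = 0.102) or without the trend (adjusted p = 0.0700).

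**Figure D2:**
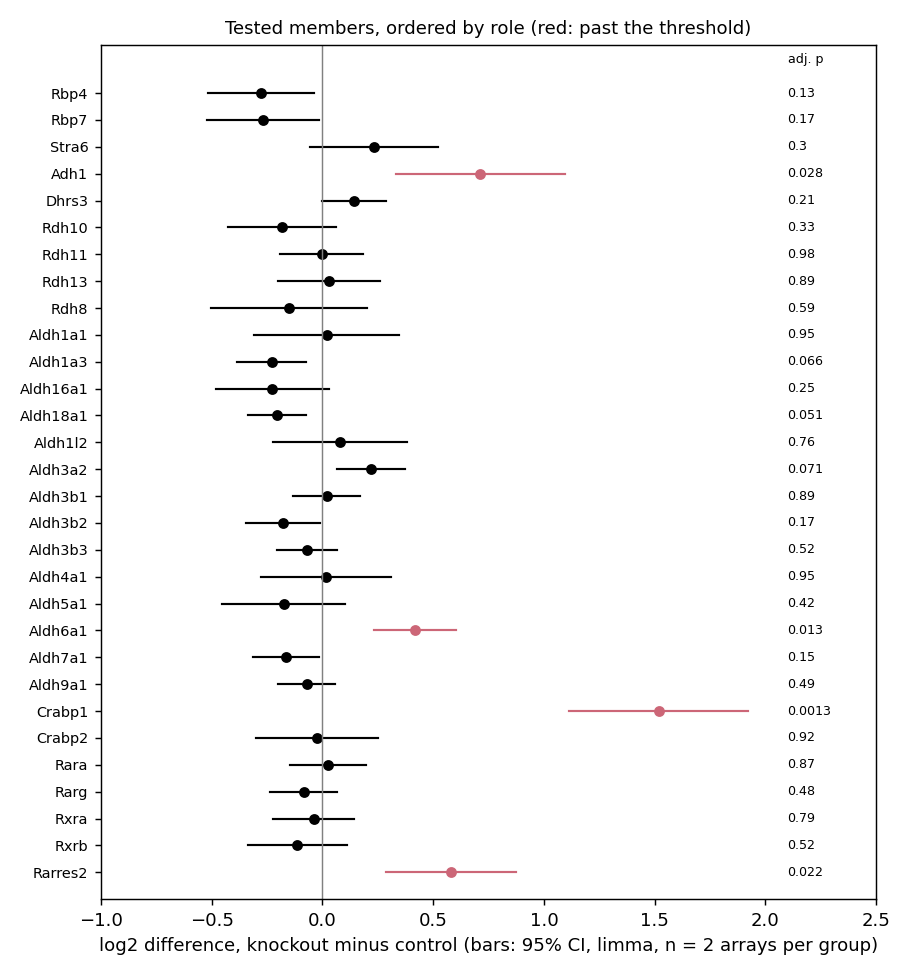
Log2 difference, knockout minus control (x axis), of the 30 tested members with 95% confidence intervals from limma (n = 2 arrays per group) and the adjusted p at the right; red marks members past the threshold. Crabp1 at 1.52 stands apart, Adh1, Rarres2 and Aldh6a1 follow, and the remaining 26 lie within 0.3 of 0.

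The enzymes that make retinoic acid did not pass. Aldh1a3, the retinaldehyde dehydrogenase typical of luminal progenitors, read 10.65 and 10.79 on the control arrays against 10.44 and 10.54 on the knockout arrays. Both knockout arrays lay below both controls by at least 0.11, with a log2 difference of -0.23 ± 0.07 (95% CI -0.39 to -0.07, limma, adjusted p = 0.0662). It passed with a robust prior (adjusted p = 0.0419), and its adjusted p reached 0.311 over the alternatives. When 1 array was left out, the difference of Aldh1a3 ran from -0.30 to -0.16. It also passed without knockout replicate 2 (-0.28), in a fit that took each gene variance from the trend alone.

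Aldh1a1, a retinaldehyde dehydrogenase often named with mammary and haematopoietic stem cell assays, read 8.23 and 8.07 in control buds against 8.24 and 8.09 in knockout buds. The groups overlapped almost exactly, at a log2 difference of 0.02 ± 0.15 (95% CI -0.31 to 0.35), and the sign turned without control replicate 2 and without knockout replicate 1. Aldh1a2, the main enzyme of retinoic acid synthesis in the mesenchyme of embryos, was under the filter at 6.65 and 6.67 on the control arrays against 6.58 and 6.55 on the knockout arrays. Aldh8a1, which can oxidize 9-cis retinal, was also under the filter and overlapped between groups. Aldh1a7, a rodent relative of Aldh1a1 that has a close sequence, was under the filter with 8.04 on both control arrays and 7.74 and 7.48 in the knockouts. Whether probes of such close relatives cross-hybridize was not tested.

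None of the 3 tested carriers and uptake genes passed, and their values went both ways. Rbp4, the carrier of retinol in blood, read 9.43 and 9.34 in control buds against 9.24 and 8.98 in knockout buds (log2 difference -0.28 ± 0.11, limma, adjusted p = 0.133). Rbp7, a cellular retinol-binding protein known from mouse endothelium and fat, read 9.31 and 9.20 on the control arrays against 9.13 and 8.85 on the knockout arrays (-0.27 ± 0.11, limma, adjusted p = 0.170). Both were lowest on knockout replicate 2, and their sizes rested on it. Without knockout replicate 1 the values were -0.41 for each gene, and both genes passed as lower. Without knockout replicate 2 the values were -0.15 and -0.13, and neither gene passed. Fits without a knockout array took each gene variance from the trend alone. Stra6, the membrane receptor for the Rbp4 and retinol complex, read 8.54 and 8.33 in control buds against 8.60 and 8.75 in knockout buds. Its groups were 0.05 apart, with a log2 difference of 0.23 ± 0.13 (95% CI -0.06 to 0.52). Rbp2, the intestinal carrier, and Rbp3, of the retina, were under the filter.

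Storage and cleavage genes were under the filter and so were not tested in the main setting. Lrat, which esterifies retinol for storage in liver stellate cells, read 6.99 and 7.23 on the control arrays against 7.26 and 7.35 on the knockout arrays. Bco1, which cleaves beta-carotene to retinaldehyde, overlapped between groups. Of the 16 oxidoreductases, 6 were tested, and Adh1 was the only one past the threshold. Rdh10 read 10.95 and 11.20 in control buds against 11.05 and 10.73 in knockout buds, overlapping groups with a log2 difference of -0.18 ± 0.11 (limma, adjusted p = 0.334). Only knockout replicate 2 was below both controls, and without knockout replicate 1 the value was -0.35, whereas it was -0.02 without knockout replicate 2. Dhrs3, which returns retinaldehyde to retinol, read 11.08 and 11.24 on the control arrays against 11.33 and 11.28 on the knockout arrays. Its groups were only 0.04 apart (log2 difference 0.14 ± 0.06, 95% CI -0.003 to 0.29, limma, adjusted p = 0.205).

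Rdh11, Rdh13 and Rdh8 overlapped between groups, with log2 differences of -0.004 ± 0.084, 0.03 ± 0.10 and -0.15 ± 0.16. Rdh8 is known from photoreceptors, and Rdh11 and Rdh13 are widely expressed reductases of retinal. The other 10 oxidoreductases were under the filter. Dhrs9 and Rdh5 had the highest untested log2 differences, 0.35 and 0.33, and Rdh7 the lowest, -0.51. Rdh1, Rdh7, Rdh9, Rdh16 and Rdh19 lie on chromosome 10 and are close relatives, and whether their probes cross-hybridize was not tested. Fitted with no filter, none of the 26 dim members passed.

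Most of the other aldehyde dehydrogenases did not pass. Of 16 such genes 12 were tested, 1 rose, as given above, and 11 did not pass. Aldh18a1, which makes the proline precursor pyrroline-5-carboxylate, read 10.80 and 10.75 in control buds against 10.58 and 10.56 in knockout buds. The gap of 0.18 was wider than the spread in either group, but the adjusted p missed the threshold (log2 difference -0.21 ± 0.06, limma, adjusted p = 0.0514). It passed with a robust prior (adjusted p = 0.0421) and with the mean of all probe sets of each gene (adjusted p = 0.04996). Its adjusted p reached 0.383 over the alternatives, and its difference ran from -0.23 to -0.18 when 1 array was left out. Aldh18a1 also passed without knockout replicate 1 (-0.21). Aldh3a2, the fatty aldehyde dehydrogenase of the endoplasmic reticulum, went the other way, with 11.03 and 11.13 on the control arrays against 11.38 and 11.22 on the knockout arrays. Its log2 difference was 0.22 ± 0.07 (limma, adjusted p = 0.0713), and 0.14 to 0.30 when 1 array was left out. It passed without knockout replicate 2 (0.30). It also passed with a robust prior (adjusted p = 0.0432) and on the deposited scale with no further normalization (adjusted p = 0.0405). On the deposited scale the fit took each gene variance from the trend alone.

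**Figure D3:**
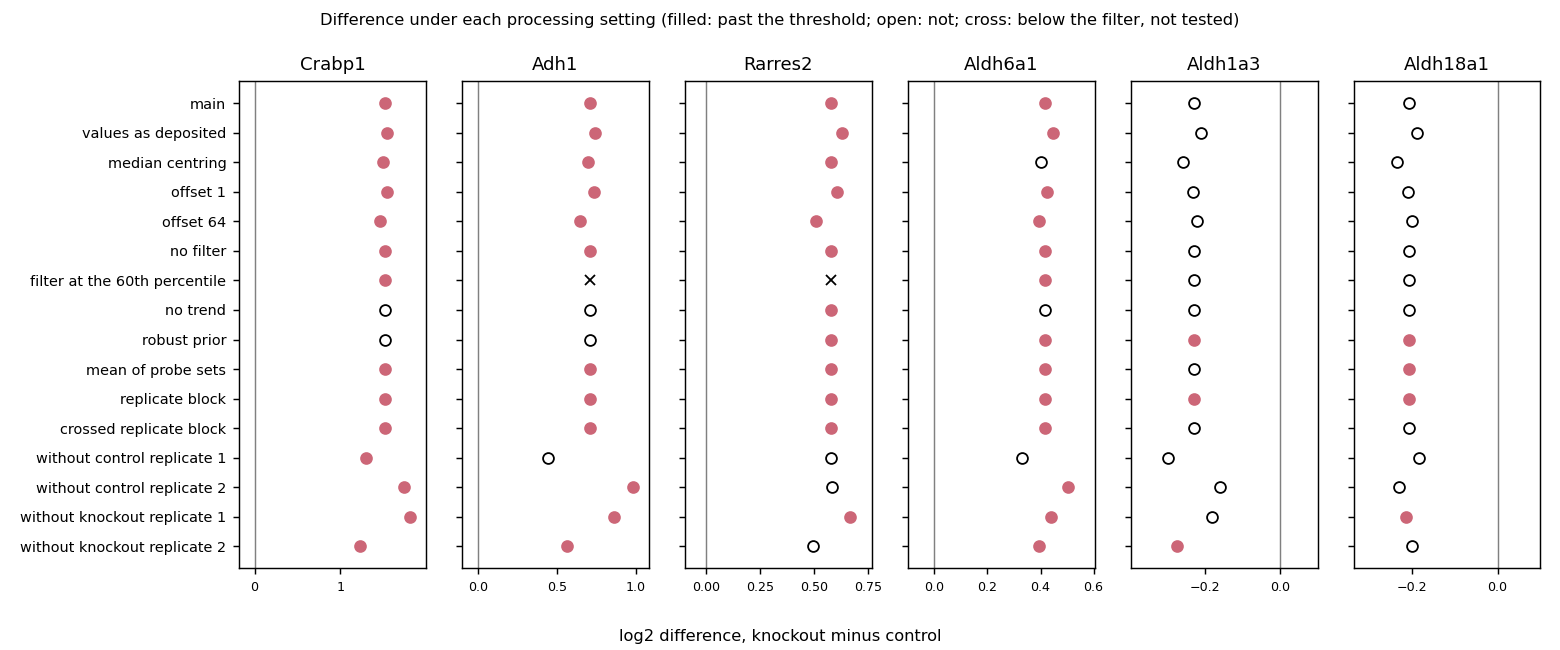
Log2 difference, knockout minus control (x axis, one panel per gene), of the 4 members that rose and of Aldh1a3 and Aldh18a1, under the main setting and each alternative (y axis); filled points passed the threshold, open points did not, and crosses lay under the filter. Crabp1 ranges from 1.22 to 1.81 and Adh1 from 0.44 to 0.98, and no gene shown changes sign.

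Aldh7a1, the enzyme of lysine breakdown, had a log2 difference of -0.16 ± 0.07, and of -0.25 to -0.08 when 1 array was left out. It passed without control replicate 2 (-0.25) and without knockout replicate 1 (-0.20). Aldh3b2 differed by -0.18 ± 0.07, and by -0.28 to -0.08 when 1 array was left out. Aldh3b2 passed without knockout replicate 1 (-0.28). Its signal may be shared with its neighbour in sequence Aldh3b3, at -0.07 ± 0.06, since another probe set is annotated to both genes. Aldh16a1 differed by -0.23 ± 0.11, and its 2 groups were 0.13 apart. Aldh5a1, the succinic semialdehyde dehydrogenase of GABA breakdown, differed by -0.18 ± 0.12, and Aldh9a1, which acts on aminoaldehydes of carnitine synthesis, by -0.07 ± 0.06. The proline breakdown enzyme gene Aldh4a1, the lipid aldehyde gene Aldh3b1 and the mitochondrial folate enzyme gene Aldh1l2 differed by 0.02 ± 0.13, 0.02 ± 0.07 and 0.08 ± 0.13. The signs of Aldh4a1 and Aldh3b1 turned in some alternatives. Aldh1a7, Aldh1b1, Aldh1l1 and Aldh3a1 were under the filter.

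None of the tested nuclear receptors passed. Rara read 9.82 and 9.97 in control buds against 9.92 and 9.92 in knockout buds (log2 difference 0.02 ± 0.08, 95% CI -0.15 to 0.20). Rarg, the receptor typical of epidermis, read 10.07 and 10.11 on the control arrays against 9.98 and 10.03 on the knockout arrays (-0.08 ± 0.07, 95% CI -0.24 to 0.07). Rxra and Rxrb, the shared partners of many nuclear receptors, differed by -0.04 ± 0.08 (95% CI -0.22 to 0.14) and -0.11 ± 0.10 (95% CI -0.34 to 0.11). Groups overlapped for Rara, Rxra and Rxrb and were 0.04 apart for Rarg. Over these 4 genes the intervals ran from -0.34 to 0.20. The signs of Rara and Rxra turned in some alternatives. Rxrg, known from muscle and brain, was under the filter.

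Rarb and Cyp26a1, whose windows hold the direct repeats printed above, were dim on all arrays. Rarb read 7.73 and 7.72 in control buds against 7.56 and 7.60 in knockout buds, and Cyp26a1 read 6.09 and 6.01 on the control arrays against 5.80 and 5.73 on the knockout arrays. Both knockout arrays lay below both controls for each gene, with means under the filter. Without detection calls, whether these signals stood above background is not known here. Fitted with no filter, the log2 differences were -0.14 ± 0.12 and -0.28 ± 0.14 (limma, adjusted p = 0.584 and 0.309). The retinoic acid hydroxylase gene Cyp26b1 read 7.62 and 7.58 in control buds against 7.48 and 7.55 in knockout buds, and Cyp26c1 overlapped between groups. Over all 26 untested members, log2 differences ranged from -0.51 to 0.35 with a median of -0.076. The median over all 19938 genes was -0.049, with the tested genes, whose median was -0.022, among them. Of these members 4 lay above, 10 below and 12 overlapped. The matching median and shares over the genes under the filter alone were not computed. No lean can thus be read from the median or the counts of these members.

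Of 35 further genes of the retinoid pathway and its receptors on the array, 23 were tested, 6 rose, 1 fell and 16 did not pass. Over all tested genes, 6.29% rose and 4.46% fell. The list was chosen with earlier results of these data known, so these counts are no test of the pathway. The mitochondrial aldehyde dehydrogenase gene Aldh2, outside the members because its symbol has no family letter, read 10.53 and 10.65 on the control arrays against 10.91 and 11.08 on the knockout arrays. It rose 1.33-fold (log2 difference 0.41 ± 0.07, limma, adjusted p = 0.00849), and did not pass without the trend (adjusted p = 0.0773). Lpl, a lipase that releases retinol from retinyl esters in lipoproteins, rose 1.97-fold (log2 difference 0.98 ± 0.13) and is also a fat cell gene. The thyroid hormone receptor gene Thra rose by 0.39 ± 0.07, Pparg, an RXR partner of fat cells, by 0.43 ± 0.11, Cyp1b1, which can oxidize retinol, by 0.40 ± 0.11, and the corepressor gene Nrip1 by 0.21 ± 0.06. Median centring ended the calls of Thra, Pparg, Cyp1b1 and Nrip1, and so did a fit without the trend (adjusted p from 0.0733 for Thra to 0.152 for Nrip1). The calls of Cyp1b1 (adjusted p = 0.0534) and Nrip1 (adjusted p = 0.0819) were also lost with no filter, and that of Nrip1 in the values as deposited, so that Nrip1 passed in 7 of 15 alternatives. Leaving out control replicate 1 ended those of Thra (0.34), Pparg (0.32) and Nrip1 (0.19), leaving out control replicate 2 those of Cyp1b1 (0.27) and Nrip1 (0.24), and leaving out knockout replicate 2 those of Pparg (0.38) and Nrip1 (0.19).

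Fabp5, a lipid carrier that can hand retinoic acid to PPAR delta, read 10.26 and 10.13 in control buds against 9.90 and 9.19 in knockout buds. It fell by 0.65 ± 0.18 on the log2 scale (limma, adjusted p = 0.0458). The size rested on knockout replicate 2: without that array the difference was -0.30, and without knockout replicate 1 it was -1.0. The call was lost on leaving out control replicate 1 (-0.58, adjusted p = 0.171), with a robust prior (adjusted p = 0.391), without the trend (adjusted p = 0.179), with no filter (adjusted p = 0.0596) and with the filter at the 60th percentile (adjusted p = 0.0660).

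**Figure D4:**
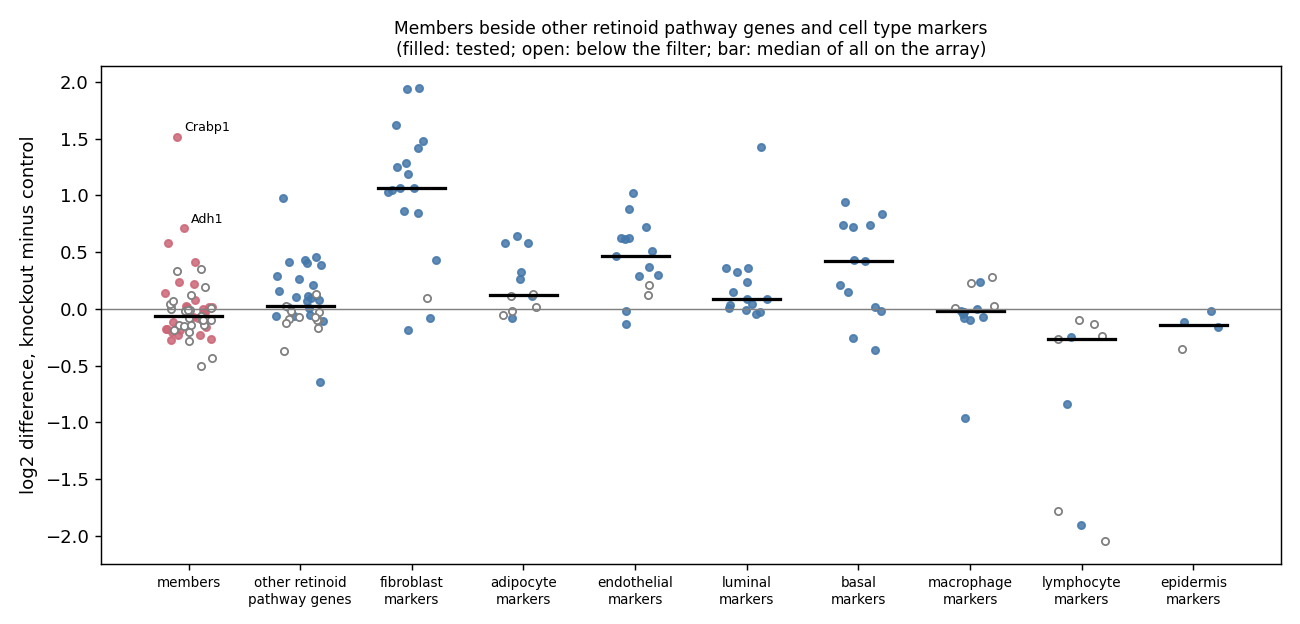
Log2 difference, knockout minus control (y axis), of the 56 members, of 35 other retinoid pathway genes and of markers of 8 cell types (x axis); filled points were tested, open points lay under the filter, and bars are medians over all genes of a list on the array. Crabp1, at 1.52, is the only member above the fibroblast marker median of 1.07, while the median of the members is -0.067.

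In the arrays as a whole, the median linear signal was 252 to 272, and the correlation of log2 values across tested genes was 0.991 between the controls and 0.987 between the knockouts. The targeted gene Ovol2 read 8.05 and 8.31 on the control arrays against 7.85 and 7.73 on the knockout arrays (log2 difference -0.39 ± 0.16, limma, adjusted p = 0.170), and where its probes lie relative to the deleted part is not known here. Of the tested luminal markers 4 of 14 rose, and of the basal markers 7 of 13 rose and 2 fell. Of 3 tested lymphocyte markers 2 fell, of 9 macrophage markers 1 fell, and epidermal markers had mean log2 values of 8.05 to 8.35 over the arrays.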

How the data were processed

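RNA of dissected end buds was hybridized to 4 Affymetrix arrays with 1 colour each. The authors deposited a table of linear signal intensities, a value for every probe set on every array. Per the submitters' processing notes, the tools were PLIER (version 2.0) and Affymetrix Expression Console (version 1.1.1). How background was corrected, how arrays were scaled and which build was used is not given in the sources used here. There were no detection calls.

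Of 35556 probe sets, 21789 carried 1 gene symbol, 1621 several, and 12146 were not listed. All 56 members matched a RefSeq gene identifier, and 0 symbols changed. Values were log2(signal + 16), quantile normalized over all probe sets. Genes whose mean lay under the 40th percentile (7.97, or about 235 as linear signal) were left out of the tests. Groups were compared in limma (version 3.58.1, R version 4.3.3) by lmFit and a two-sided eBayes test with a mean-variance trend and Benjamini-Hochberg adjustment over 11963 genes, with 2 residual degrees of freedom and 7.57 borrowed. Precision is limited by 2 arrays per group.

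The members and lists were chosen with earlier results of these data known. Given by array were the members past the threshold, a core of retinoid genes and the 3 largest differences that did not pass (Rbp4, Rbp7 and Stra6). Other tested members are given for completeness. The fit was tested on simulated data. Alternatives varied normalization, offset (1 or 64), filter (none or the 60th percentile), variance prior, probe set, replicate block and the arrays used.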

Additional observations from a re-analysis of the deposited data

How the results depend on the processing

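The genes behind the count of members that rose changed too: with a robust prior they were Aldh3a2, Aldh6a1 and Rarres2, without Crabp1 and Adh1. The count, 4 in the values reported, was 3 with that prior and 1 without the trend. With the filter at the 60th percentile, where 19 members were tested, it was 2. It ranged from 1 (without control replicate 1) to 4 when 1 array was left out, a fit that takes the lone array of a group to vary like the other. The count that fell, 0 in the values reported, was 2 with a robust prior, 1 with the mean of probe sets, 0 to 6 when 1 array was left out, with the highest without knockout replicate 1, and 5 with the replicate number as a block (Aldh18a1, Aldh1a3, Aldh3b2, Aldh7a1 and Rdh10). With the block 5 rose, Aldh3a2 joining the 4. Without knockout replicate 1, Aldh18a1, Aldh3b2, Aldh7a1, Rbp4, Rbp7 and Rdh10 passed as lower, and without control replicate 2 Aldh7a1 did. Without knockout replicate 2, Aldh1a3 passed as lower and Aldh3a2 as higher, while Rarres2 did not pass. Over all genes, 752 rose and 533 fell; these were 480 and 274 with median centring, 144 and 45 without the trend, 1168 and 1076 with the replicate block, and 313 to 1159 and 142 to 1185 when 1 array was left out. The split of calls moved with the scaling: 1015 rose and 510 fell in the values as deposited. Fits as deposited, median centred, with the replicate block, or without either knockout array took each gene variance as given by the trend alone, and gave very small p-values.

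The groups share replicate numbers, but deviations of same-numbered arrays correlated at -0.195, so the block is no pairing known from the design. A crossed block, chosen after seeing the data, called 4 members as higher and 0 as lower.

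Signs turned for members near 0. With median centring these were Aldh3b1 (-0.0067) and Rara (-0.00052), and in the values as deposited Crabp2 (0.020) and Rdh11 (0.027). When 1 array was left out, values ran from -0.060 to 0.097 for Aldh1a1, -0.029 to 0.066 for Aldh3b1, -0.11 to 0.15 for Aldh4a1, -0.075 to 0.027 for Crabp2, -0.049 to 0.099 for Rara, -0.090 to 0.082 for Rdh11, -0.017 to 0.075 for Rdh13 and -0.13 to 0.048 for Rxra. Over all genes and alternatives examined singly, 37 values lost the threshold, 20 gained it and 17 turned sign where tested. Another 7 moved by 1 SD or more where untested. The remaining 579 kept their direction and side of the threshold, or moved by less than 1 SD where untested in either fit. They include Adh1, Rarres2, Lpl and Pparg with the filter at the 60th percentile. These 4 genes passed in the main setting and were not tested under that filter. The causes were not tested. Without detection calls, whether dim members stood above background is not known.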

Other observations

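A pair of probe sets annotated to a member together with another gene stayed outside the comparisons. The one annotated to Aldh3b2 and Aldh3b3 read 10.69 and 10.73 in control buds against 10.54 and 10.38 in knockout buds on the log2 scale, a difference of -0.25 with no overlap between the groups. The one annotated to Rdh11 and Pwwp3a read 8.46 and 8.61 on the control arrays against 8.51 and 8.21 on the knockout arrays, which overlap.

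Aldh3b3 had 3 probe sets of its own. The brightest is given in the comparison, and the other 2 differed by -0.19 and 0.02, with arrays that overlapped between the groups in both.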
